A study of Mus musculus with 21 samples.

Results

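The 5 genes described here encode the small basic proteins that repackage the sperm genome, together with a relative of them. They are *Tnp1* and *Tnp2*, the transition protein genes, and *Prm1*, *Prm2* and *Prm3*, the protamine genes, and they were chosen by symbol from the 24456 genes counted in each library. RNA was sequenced from 21 libraries of mouse male germ cells. The titles of the samples do not name the organ from which the spermatozoa were taken. There were 3 wild-type and 3 *H2al2* KO libraries of pachytene spermatocytes, as many of round and of condensing spermatids, and of spermatozoa 2 wild-type libraries and 1 *H2al2* KO library. The *H2al2* KO removes H2A.L.2, a histone variant of late spermatids. The strain and age of the animals, the design of the deleted allele and whether replicates came from separate animals are not given in the labels, and the study calls the wild-type round spermatid libraries biological replicates. All p-values therefore measure the spread between these libraries. Counts on genes ranged from 2772995 to 8201682 per library.

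In elongating spermatids most nucleosomal histones are replaced first by transition proteins and then by protamines, which compact the DNA of the sperm head. Transcription of these genes begins in round spermatids under CREM and its co-activator ACT, and their mRNAs are stored, bound by proteins, for days before they are translated as the nucleus condenses and transcription stops. *Prm1* encodes a protamine that binds DNA as made, *Prm2* a precursor that is shortened after it reaches the chromatin, and *Prm3* a small acidic protein that, despite its name, is known from the cytoplasm of spermatids.

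*Tnp1* lies alone on chromosome 1, from 73015074 to 73015899 on the minus strand (mm10, RefSeq annotation). The 4 other genes form a cluster of 8889 bases on the minus strand of chromosome 16, with *Tnp2* from 10787935 to 10788655, *Prm3* from 10790508 to 10790914, *Prm2* from 10791377 to 10792105 and *Prm1* from 10796332 to 10796823. *Tnp1*, *Tnp2*, *Prm1* and *Prm2* each have 2 exons in GENCODE and *Prm3* has 1, and they encode proteins of 55, 117, 51, 107 and 101 residues in the order *Tnp1*, *Tnp2*, *Prm1*, *Prm2* and *Prm3*. The 120 bases before the annotated start of each gene are shown because genes of this programme are known for control by CREM in round spermatids. The sequences are RefSeq's (GRCm38.p6), read 5′ to 3′ along the minus strand, and capitals mark matches to TGANNTCA, a relaxed form of the cyclic AMP response element, or to the TATA-type motifs TATAAA and TATATA, on either strand.
Tnp1, chr1:73015900-73016019: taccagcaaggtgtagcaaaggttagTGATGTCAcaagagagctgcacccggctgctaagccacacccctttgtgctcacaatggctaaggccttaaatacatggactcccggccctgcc
Tnp2, chr16:10788656-10788775: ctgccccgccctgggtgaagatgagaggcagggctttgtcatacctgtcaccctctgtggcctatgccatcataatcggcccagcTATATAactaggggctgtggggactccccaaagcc
Prm1, chr16:10796824-10796943: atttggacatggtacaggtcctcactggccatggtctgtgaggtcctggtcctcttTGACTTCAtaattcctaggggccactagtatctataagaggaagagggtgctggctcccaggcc
Prm2, chr16:10792106-10792225: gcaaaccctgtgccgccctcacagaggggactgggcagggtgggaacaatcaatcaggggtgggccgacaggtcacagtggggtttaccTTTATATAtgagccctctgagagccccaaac
Prm3, chr16:10790915-10791034: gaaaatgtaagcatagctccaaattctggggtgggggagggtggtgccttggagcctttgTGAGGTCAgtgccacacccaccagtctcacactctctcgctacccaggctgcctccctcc

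The windows searched held 250 bases before and 50 after the start, and the relaxed element was chosen after the sequences had been seen. The unrelaxed element TGACGTCA was in none of the 5 windows and in 1.79% of 32851 RefSeq windows. TGANNTCA was found in *Tnp1* (first base 94 before the start), *Prm1* (64 before) and *Prm3* (60 before), and in 14.1% of all windows. TATATA was found in *Tnp2* (35 before) and *Prm2* (29 before, where it overlaps a TATAAA match on the other strand at 31 before), and in 5.67% of all windows, with TATAAA in 13.6%. CCAAT was found only in *Prm3* among the 5, 150 before the start, and in 37.4% of all windows. A match is a string of letters and not a measured binding site.

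The labels were checked against genes that mark cell types. *H2afb1*, the symbol under which the files list the gene of H2A.L.2, was at 201, 206 and 211 normalized CPM in the wild-type round spermatid libraries and at 25.3, 25.4 and 20.7 in the *H2al2* KO ones. Normalized CPM is a library-size scaled count (CPM, relative to the counts on genes) after TMM scaling over the 21 libraries. The reads that remained in the KO were not traced. *H2afb1* was lower in the KO of round spermatids by a log2 fold change of -3.10 ± 0.10 (SE, edgeR, adjusted p = 3.4e-08) and of condensing spermatids by -2.71 ± 0.17 (SE, edgeR, adjusted p = 9.53e-07). In pachytene spermatocytes its log2 fold change was -2.75 ± 0.37 (SE, edgeR, adjusted p = 0.484), and wild-type values were 40.8, 36.7 and 14.5 against 4.81, 4.92 and 3.16 in the KO, with no overlap.

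Some libraries stood apart or held RNA of other cells, which bears on every comparison below. Wild-type pachytene replicate 3 stood apart from replicates 1 and 2. The 12 round spermatid markers summed to 600 normalized CPM in it against 969 and 1043, the 12 elongating spermatid markers to 3141 against 5417 and 5422, and the 12 spermatocyte markers to 2018 against 1407 and 1062. It thus held less RNA of spermatid genes than the others of its group. The condensing spermatid libraries carried more RNA of Sertoli and Leydig cells than the round ones. Of 7 tested macrophage markers, 0 were called between these stages in wild type. The 12 Sertoli cell markers summed to 571 to 737 normalized CPM in wild-type condensing spermatids against 56.0 to 77.5 in wild-type round spermatids, and their most abundant gene, *Clu*, was at 245 to 325. The 8 Leydig cell markers, led by *Cyp17a1*, summed to 153 to 239 against 11.6 to 15.5. The spermatozoa held RNA of macrophages and of the epididymis. The 8 macrophage markers, led by *Lyz2*, summed to 965 and 912 normalized CPM in wild type and to 4125 in the KO library, against 38.9 at most in wild-type condensing spermatids. The 10 epididymal markers summed to 1804 and 1921 in wild type and 557 in the KO, of which *Crisp1* made up 1481, 1564 and 509. At 0 counts were 3 and 5 of the 10 in wild type and 7 in the KO. *Lcn5*, *Lcn8* and *Lcn9* were at 0 counts in all 3 libraries. In bulk RNA a smaller share of a cell type and less RNA per cell cannot be told apart, and the part of these admixtures in the results was not tested.

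**Figure D1:**
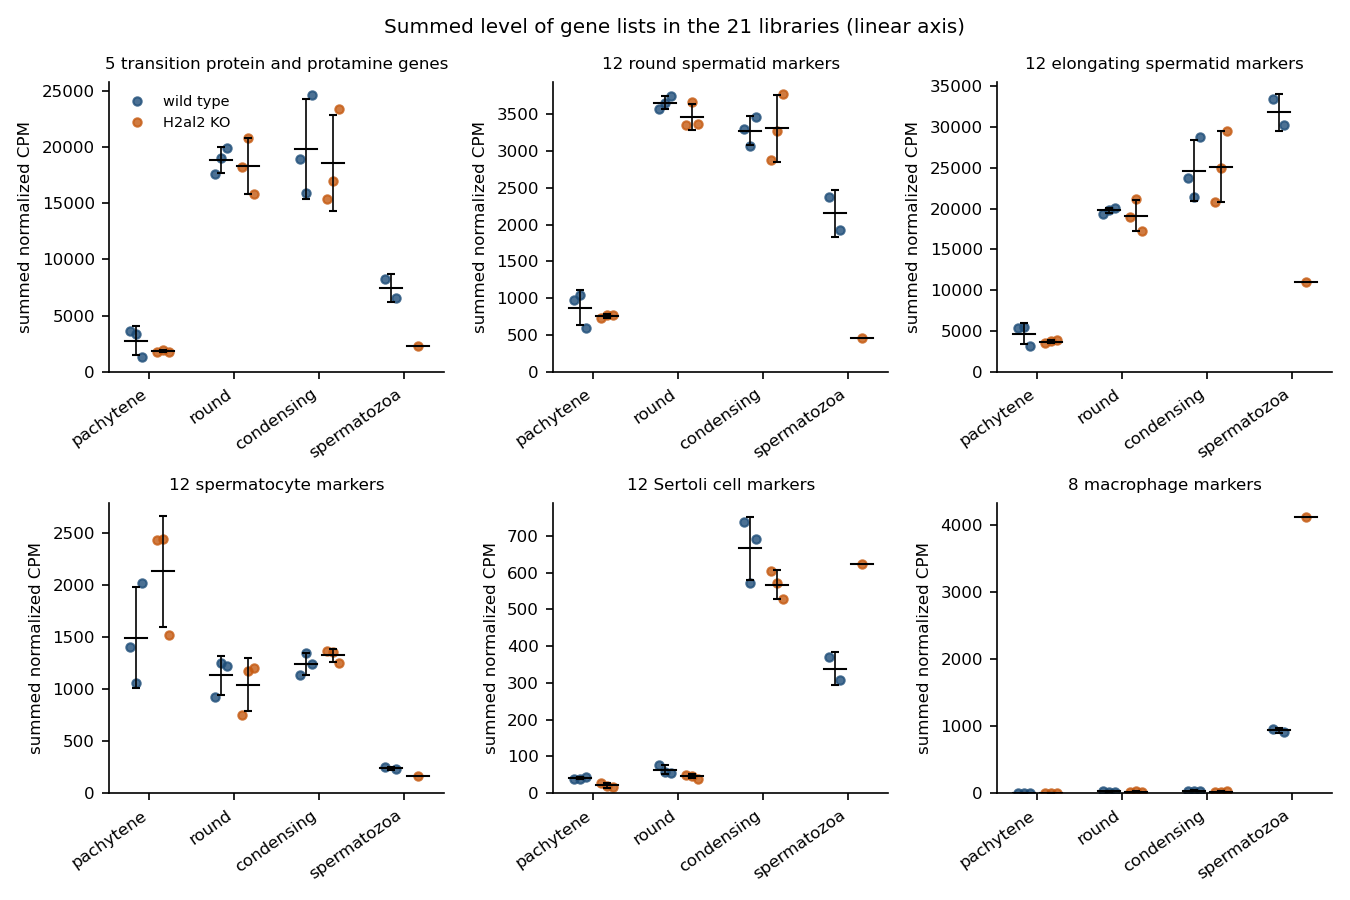
Summed normalized CPM (linear vertical axes) of the 5 transition protein and protamine genes and of 5 marker lists, by stage and genotype. Each point is 1 library, black lines are means and whiskers are ± 1 SD; the 5 genes and the spermatid markers are low in pachytene spermatocytes, Sertoli cell markers are high in condensing spermatids and the macrophage sum of the KO spermatozoa library reaches 4125.

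In round spermatids *Tnp1*, *Tnp2*, *Prm1* and *Prm2* were, per kilobase, among the most abundant RNAs counted in these ribosomal RNA-depleted libraries. The 5 together took 1.67% to 1.87% of counts on genes in wild-type round spermatids. Per kilobase of transcript, *Prm2* was at 11777 ± 518 normalized CPM (SD, n = 3) and ranked 3 among 23378 genes with a known length, behind the mitochondrial ribosomal RNA genes *mt-Rnr2* and *mt-Rnr1*. *Tnp1* followed at 8294 ± 703 per kilobase (SD, n = 3), *Prm1* at 8213 ± 398 (SD, n = 3) and *Tnp2* at 6919 ± 652 (SD, n = 3). *Prm2* was above these 3 by more than their spread, whereas *Tnp1* and *Prm1* did not differ beyond it. *Prm3* was at 545 ± 29.2 per kilobase (SD, n = 3), rank 95. In wild-type condensing spermatids *Prm2* was again at rank 3, with 15224 ± 3522 per kilobase (SD, n = 3), above *Prm1* at rank 4 by more than their SDs. *Prm1* was at 8530 ± 1824, *Tnp1* at 6818 ± 1596 and *Tnp2* at 5778 ± 1382 per kilobase (SD, n = 3), so that the ranges of 1 SD around neighbouring means overlapped. In wild-type spermatozoa *Prm2* was at rank 4 and *Tnp1* at rank 46. Counting error was below the spread of replicates for each of the 5 genes in every group with replicates, but not always by much. In wild-type round spermatids it came to 0.437% of the level of *Prm2* and 2.50% of that of *Prm3*, where replicates varied by 4.40% and 5.36% (coefficient of variation). The nearest were *Tnp1* in wild-type spermatozoa (2.90% against 3.89%) and *Prm3* in *H2al2* KO pachytene spermatocytes (6.76% against 9.69%).

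**Figure D2:**
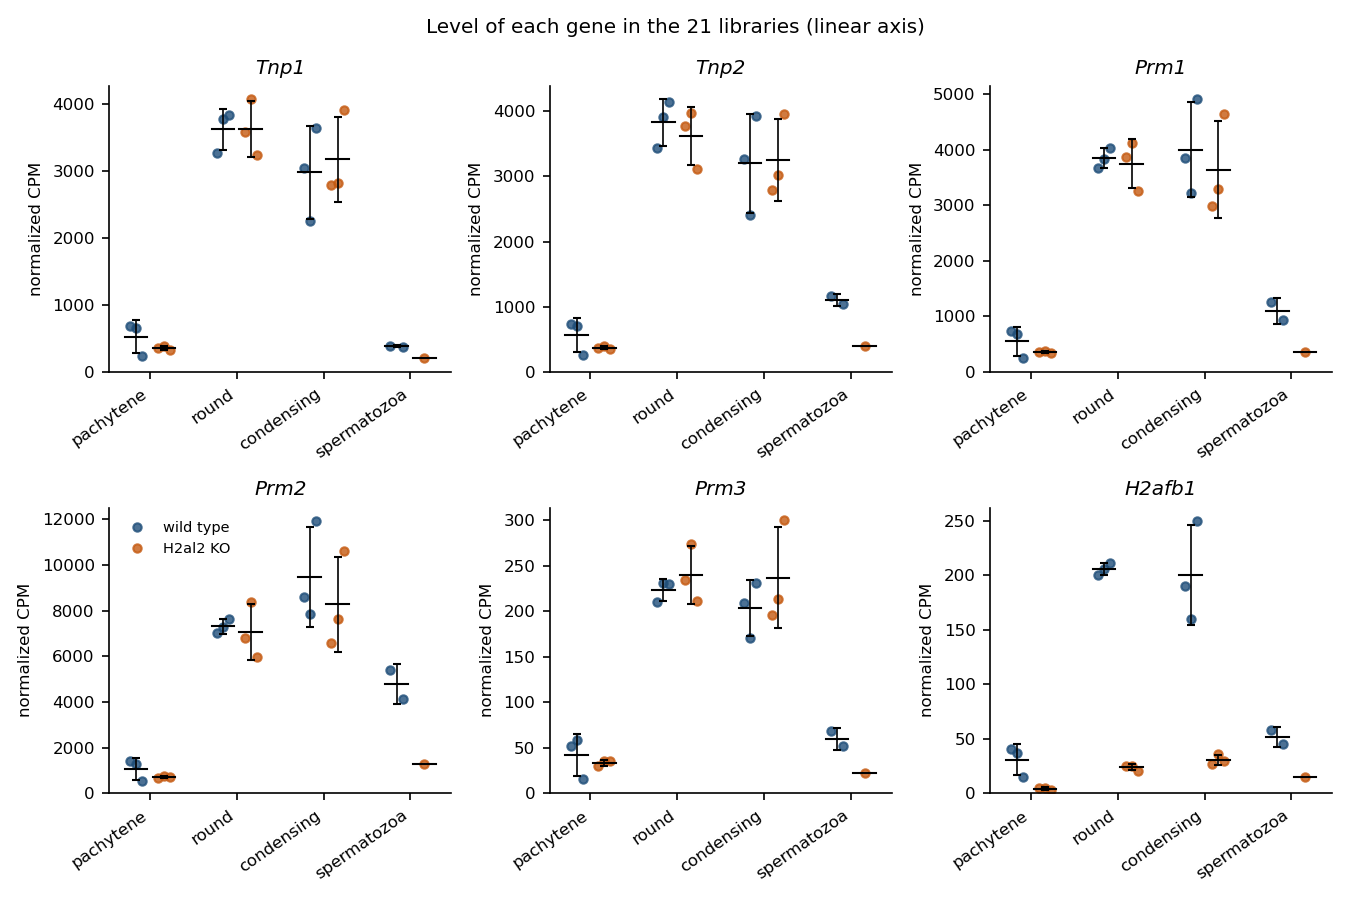
Normalized CPM (linear vertical axes) of the 5 genes and of *H2afb1* in the 21 libraries, by stage and genotype. Points are libraries, black lines means and whiskers ± 1 SD; the 5 genes rise from pachytene to round spermatids and are lower in spermatozoa, and in the 3 stages before spermatozoa *H2afb1* is the only one of the 6 whose wild-type and *H2al2* KO libraries do not overlap.

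All 5 genes were higher in round spermatids than in pachytene spermatocytes. *Tnp1* was at 683, 652 and 236 normalized CPM in wild-type pachytene spermatocytes and at 3271, 3772 and 3830 in wild-type round spermatids. *Tnp2* was at 732, 706 and 261 against 3439, 3913 and 4148. The stages did not overlap for either transition protein gene, and replicate 3 was the low pachytene library in both. How many of all genes separated in this way was not counted. *Prm1* was at 728, 674 and 251 normalized CPM in pachytene spermatocytes and at 3670, 3844 and 4043 in round spermatids. *Prm2* was at 1395, 1285 and 520 against 7006, 7288 and 7648. *Prm3* was at 52.0, 58.6 and 16.1 against 210, 231 and 231. The protamine genes showed the same separation and the same low library.

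All 5 genes were called higher in round spermatids, in a comparison in which 70.3% of 14011 tested genes were called, 34.4% higher and 35.9% lower. The log2 fold change was 2.83 ± 0.32 for *Tnp1* (SE, edgeR, adjusted p = 4.63e-06), 2.80 ± 0.32 for *Tnp2* (SE, edgeR, adjusted p = 4.56e-06) and 2.84 ± 0.32 for *Prm1* (SE, edgeR, adjusted p = 3.45e-06). It was 2.81 ± 0.30 for *Prm2* (SE, edgeR, adjusted p = 2.54e-06) and 2.43 ± 0.33 for *Prm3* (SE, edgeR, adjusted p = 1.88e-05). The 4 classical genes thus changed by nearly the same factor, and the interval of *Prm3*, from 1.73 to 3.14, includes it. The median log2 fold change of all tested genes was -0.02. In the *H2al2* KO, where 74.9% of 13877 genes were called (36.5% higher, 38.4% lower), the 5 were called higher too. Their log2 fold changes ran from 2.82 ± 0.15 for *Prm3* (SE, edgeR, adjusted p = 2.21e-12) to 3.36 ± 0.15 for *Prm1* (SE, edgeR, adjusted p = 2.98e-13).

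All 12 round spermatid markers and all 12 elongating spermatid markers were called higher in wild-type round spermatids, with median log2 fold changes of 2.02 and 2.51. The pachytene libraries held the 5 genes at 6.81% to 19.1% of their summed level in wild-type round spermatids, the round spermatid markers at 16.4% to 28.5% and the elongating spermatid markers at 15.9% to 27.4%. The lowest of each of these shares was that of wild-type replicate 3. Of the 12 spermatocyte markers, 6 were called lower and 2 higher in round spermatids. Markers of somatic cells moved too. All 7 tested macrophage markers were called higher (median log2 fold change 2.58), 6 of 11 tested Sertoli cell markers were called higher (median 1.04) and all 8 Leydig cell markers were called lower (median -3.23). Their part in the result was not tested. Whether the pachytene signal of the 5 genes is RNA of spermatocytes or of spermatids in the fraction was not tested.

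From round to condensing spermatids no change in the level of the 5 genes passed the test with all libraries. *Tnp1* was at 3047, 2251 and 3641 normalized CPM in wild-type condensing spermatids and *Tnp2* at 3263, 2406 and 3933, both overlapping the round spermatid values. *Prm1* was at 3854, 3228 and 4920, which spanned its round spermatid values. *Prm2* was at 8578, 7841 and 11943, all above the highest wild-type round spermatid library, at 7648. The share of all genes with such a separation was not counted. *Prm3*, at 209, 170 and 231, overlapped. Replicate 3 was the highest and replicate 2 the lowest library for each of the 5.

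None of the 5 passed the threshold in wild type, where 50.0% of 14011 tested genes were called (28.3% higher, 21.8% lower). Log2 fold changes (with 95% confidence intervals) were -0.26 (-0.91 to 0.40) for *Tnp1*, -0.23 (-0.88 to 0.41) for *Tnp2*, 0.08 (-0.56 to 0.72) for *Prm1*, 0.40 (-0.22 to 1.01) for *Prm2* and -0.11 (-0.77 to 0.55) for *Prm3*. The fit took its spread from the pachytene libraries as well. Without wild-type pachytene replicate 3, a choice made after the values were seen, *Prm2* was called higher in condensing spermatids, with a log2 fold change of 0.38 (edgeR, adjusted p = 0.0332), and the other 4 were not called. The fit on round and condensing spermatids alone, added likewise, also called *Prm2* and no other of the 5, with 0.42 (edgeR, adjusted p = 0.0431). In the *H2al2* KO, where 54.2% of 13877 genes were called (29.7% higher, 24.5% lower), none of the 5 was called, and the values ran from -0.18 (-0.45 to 0.08) for *Tnp1* to 0.24 (-0.07 to 0.55) for *Prm2*. Without KO condensing replicate 1 *Prm2* was called higher, with 0.37 (edgeR, adjusted p = 0.0462), and without KO condensing replicate 3 *Tnp1* was called lower, with -0.35 (edgeR, adjusted p = 0.0266). *Prm2* was at 0.03 without KO condensing replicate 3 (edgeR, adjusted p = 0.857) and at 0.10 without KO round replicate 3 (edgeR, adjusted p = 0.614).

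**Figure D3:**
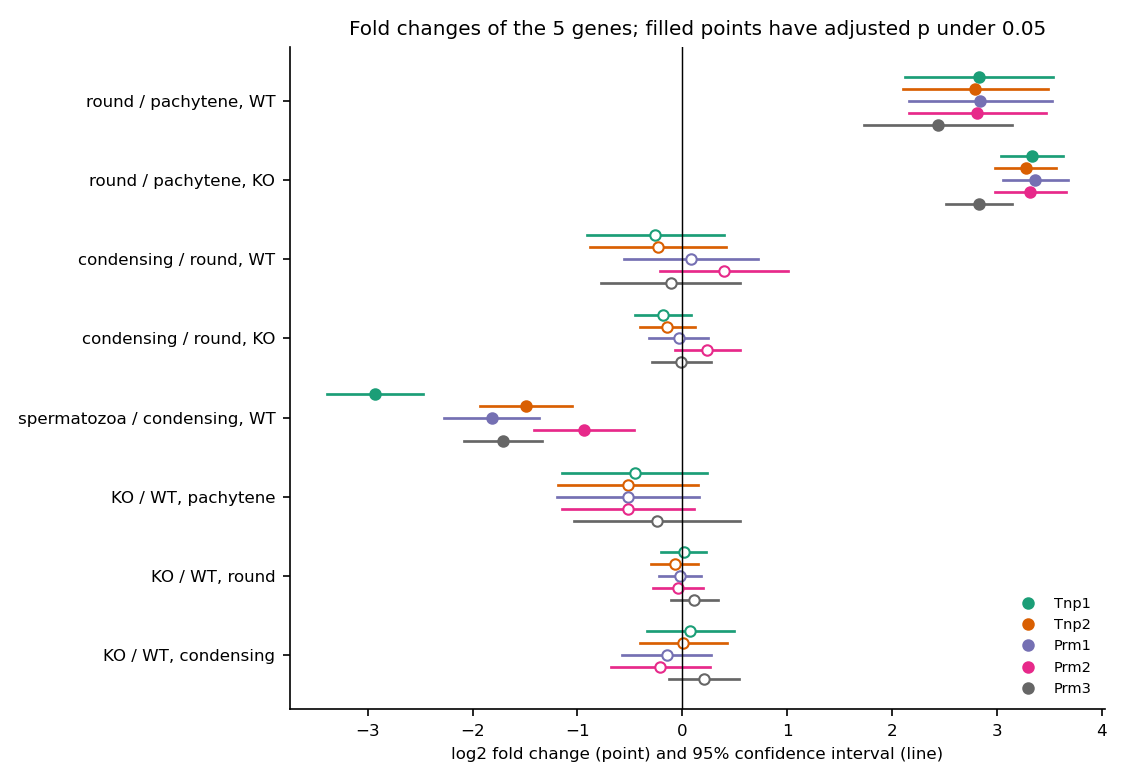
Log2 fold changes of the 5 genes (horizontal axis; points) with 95% confidence intervals (lines) in 8 comparisons, named on the vertical axis as the higher-stage or KO group over the other. Filled points have an adjusted p under 0.05: they are the 5 genes in both pachytene to round comparisons and in spermatozoa against condensing spermatids.

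Ratios of counts within a library do not depend on how libraries are scaled, and were looked at after the levels had been seen, so they are given without a test. The *Prm2* to *Tnp1* ratio was 1.89 to 2.21 in the 6 pachytene libraries and 1.84 to 2.14 in the 6 round spermatid libraries, which overlap. In condensing spermatids it was 2.81, 3.48 and 3.28 in wild type and 2.36, 2.71 and 2.71 in the *H2al2* KO, all above the round spermatid range. Of 9004 genes with at least 10 CPM on average, 23.1% had a ratio to *Tnp1* that was higher in all 6 condensing than in all 6 round libraries, and 3.42% one that was lower. The mean ratio of condensing to round spermatids was 1.58-fold in wild type and 1.34-fold in the KO. The *Prm1* to *Tnp1* ratio was 1.35 ± 0.08 (SD, n = 3) in wild-type condensing spermatids and 1.07 ± 0.05 (SD, n = 3) in wild-type round spermatids, and over both genotypes the stages overlapped, since the KO condensing libraries were at 1.07, 1.17 and 1.19 and the round ones at 1.01 to 1.12. Of the 4 ratios to *Tnp1*, that of *Prm2* was thus the only one without overlap between the 6 condensing and the 6 round libraries, a share near that of all genes. The *Tnp2* to *Tnp1* ratio remained between 0.961 and 1.11 in all 18 libraries of the 3 stages. The *Prm3* to *Tnp1* ratio was 0.0685 to 0.107 in pachytene and 0.0602 to 0.0672 in round spermatids, lower in every round library, as was the ratio to *Tnp1* of 92.4% of the 9004 genes.

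At the condensing stage the genotypes did not overlap in the *Prm1* and *Prm2* ratios to *Tnp1*, but did in the *Tnp2* ratio, at 1.07 to 1.08 in wild type and 0.998 to 1.07 in the KO, and in the *Prm3* ratio, at 0.0634 to 0.0757 and 0.0702 to 0.0767. The *Prm1* to *Tnp1* ratio was lower in each KO condensing library than in each wild-type one, where it was 1.26, 1.43 and 1.35, and so was the *Prm2* to *Tnp1* ratio given above. Of the 9004 genes, 2.14% had a ratio to *Tnp1* that was lower without overlap in the KO, and 0.167% one that was higher. With *Prm1* as the denominator, *Prm2* was at 2.36 ± 0.12 (SD, n = 3) in wild type and 2.27 ± 0.06 (SD, n = 3) in the KO, which overlap. In round spermatids the genotypes overlapped in the ratios of *Tnp2*, *Prm1* and *Prm2* to *Tnp1*. That of *Prm3* was 0.0641, 0.0611 and 0.0602 in wild type and higher in the KO, at 0.0655, 0.0672 and 0.0653, as it was for 1.06% of the 9004 genes (3.61% were lower). The Sertoli and Leydig cell markers do not enter these ratios. They summed to 528 to 604 and 91.9 to 137 normalized CPM in the KO condensing libraries. Between the genotypes at the condensing stage, the 12 round spermatid markers had a median log2 fold change of 0.21. That of the 12 elongating spermatid markers was 0.01, and no marker of either list was called. The part of these measures in the difference was not tested.

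**Figure D4:**
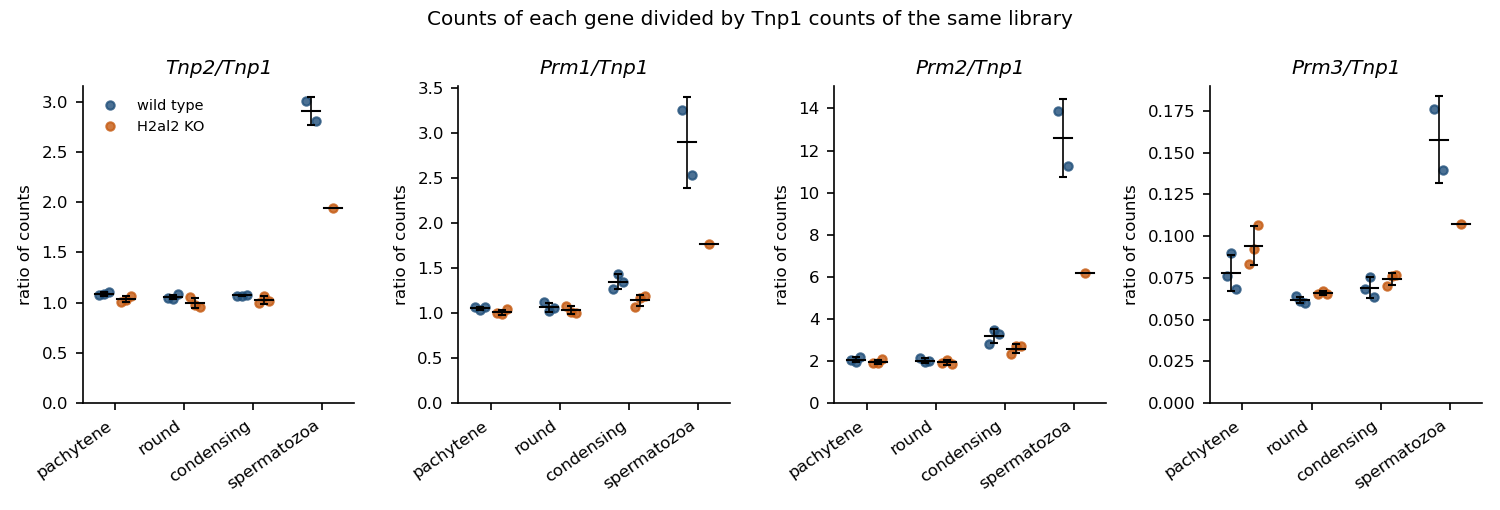
Counts of *Tnp2*, *Prm1*, *Prm2* and *Prm3* divided by the *Tnp1* counts of the same library (linear vertical axes), by stage and genotype. Points are libraries, black lines means and whiskers ± 1 SD; *Prm2* over *Tnp1* lies near 2 up to round spermatids, between 2.36 and 3.48 in condensing spermatids and between 6.17 and 13.9 in spermatozoa.

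In spermatozoa, where transcription has ended, the 5 genes were lower than in condensing spermatids, and *Tnp1* fell most. *Tnp1* was at 389 and 368 normalized CPM in the wild-type libraries, and *Tnp2* at 1170 and 1033. *Prm1* was at 1265 and 934, *Prm2* at 5401 and 4147, and *Prm3* at 68.5 and 51.3. For each of the 5, both libraries were below all 3 wild-type condensing libraries, a separation that was not counted over all genes. All 5 were called lower, in a comparison in which 72.4% of 15116 tested genes were called, 36.6% higher and 35.8% lower. The log2 fold change was -2.93 ± 0.22 for *Tnp1* (SE, edgeR, adjusted p = 1.77e-10), -1.49 ± 0.21 for *Tnp2* (SE, edgeR, adjusted p = 1.86e-06) and -1.82 ± 0.22 for *Prm1* (SE, edgeR, adjusted p = 1.91e-07). It was -0.94 ± 0.23 for *Prm2* (SE, edgeR, adjusted p = 0.000996) and -1.71 ± 0.18 for *Prm3* (SE, edgeR, adjusted p = 2.53e-08). The interval of *Tnp1*, from -3.39 to -2.47, did not reach those of the other 4, of which the lowest ended at -2.27. Without wild-type spermatozoa replicate 2, *Prm2* lost its call, with -0.75 (edgeR, adjusted p = 0.0687), in a fit that leaves 1 spermatozoa library, assumed to vary like the condensing spermatid libraries. The wild-type *Prm2* to *Tnp1* ratio was 13.9 and 11.3 in spermatozoa, 3.94-fold its mean in wild-type condensing spermatids, and the *Tnp2* to *Tnp1* ratio rose from 1.07 ± 0.01 (SD, n = 3) to 3.01 and 2.81. Levels are shares of the RNA in the library, which here included the macrophage and epididymal RNA given above. All 6 housekeeping genes were called higher in spermatozoa, with a median log2 fold change of 1.20. Elongating spermatid markers split, with 8 of 12 called lower and 2 higher.

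The only *H2al2* KO library of spermatozoa had lower values than both wild-type ones for every gene of the 5, and with 1 library there is no test. So did 44.9% of the 9005 genes with at least 10 CPM on average, while 42.4% were above both, so that most genes lay outside the wild-type values in this library. *Tnp1* was at 205 normalized CPM, *Tnp2* at 398, *Prm1* at 362, *Prm2* at 1264 and *Prm3* at 21.9, the last from 72 counts. The 5 genes took 0.224% of its counts on genes (exact 95% binomial interval 0.219% to 0.229%, counting error only) against 0.825% and 0.679% in wild type. The 12 elongating spermatid markers were also lower, at 10958 summed normalized CPM against 33389 and 30208, and the macrophage markers higher. Reads not wholly within a gene's exons on the transcribed strand made up 45.9% of its counted reads, against 32.7% and 32.1% in wild type. The part of these measures was not tested. Within the library, *Prm2* was 6.17 times *Tnp1*.

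At the 3 earlier stages, no difference between *H2al2* KO and wild type in the 5 genes passed the threshold. In round spermatids *Tnp1* was at 3580, 4077 and 3241 normalized CPM in the KO, and the other 4 overlapped wild type as well. There the log2 fold changes ran from -0.07 (95% confidence interval -0.30 to 0.15) for *Tnp2* to 0.11 (-0.11 to 0.34) for *Prm3*. Of 12804 tested genes, 0.0156% were called (0.00781% in each direction). These were 2 genes, against 264 without wild-type round replicate 1 and 61 with a replicate block, and none of the 5 was called in either. The fit with 264 kept wild-type round replicates 2 and 3, which are close to each other. For levels, 5.95% of the 9005 genes were lower and 3.05% higher in the KO without overlap. In condensing spermatids *Prm2* was at 6575, 7628 and 10603 normalized CPM in the KO and overlapped wild type, as did the other 4. The log2 fold changes ran from -0.21 (-0.68 to 0.26) for *Prm2* to 0.20 (-0.13 to 0.54) for *Prm3*, and 0.00728% of 13734 tested genes were called. This was 1 gene, against 24 without wild-type condensing replicate 2, 9 without wild-type replicate 3, 4 without wild-type replicate 1, 3 without KO replicate 1 and 26 with a replicate block, and none of the 5 was called in any of these. Without overlap, 4.35% of the 9005 genes were lower and 7.55% higher in the KO. The intervals of the 5 reached 0.34 on the log2 scale at most in round spermatids and -0.68 in condensing spermatids.

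In pachytene spermatocytes the outcome rested on 1 library. *Prm2* was at 675, 737 and 689 normalized CPM in the KO, between the 2 higher wild-type libraries and replicate 3, at 520, and each of the other 4 also lay between them. With all libraries the log2 fold changes ran from -0.52 (95% confidence interval -1.20 to 0.16) for *Prm1* to -0.24 (-1.03 to 0.55) for *Prm3*, and 0% of 12236 genes were called by edgeR. At an unadjusted p under 0.05 there were 815 genes, and DESeq2 called 2. Of the 9005 genes, 5.77% were lower and 4.99% higher in the KO without overlap. Without wild-type replicate 3 all 5 were called lower in the KO, with log2 fold changes of -0.78 for *Tnp1* (edgeR, adjusted p = 0.0388), -0.84 for *Tnp2* (edgeR, adjusted p = 0.0388), -0.84 for *Prm1* (edgeR, adjusted p = 0.0388), -0.82 for *Prm2* (edgeR, adjusted p = 0.0388) and -0.60 for *Prm3* (edgeR, adjusted p = 0.0469), among 243 called genes. Without wild-type replicate 1 or 2 none was called. Markers moved with the 5 genes in these libraries. The round spermatid markers summed to 726, 778 and 768 normalized CPM in the KO against 969 and 1043 in wild-type replicates 1 and 2. The elongating spermatid markers summed to 3491, 3734 and 3866 against 5417 and 5422. The spermatocyte markers were higher in the KO, at 2437, 2448 and 1519 against 1407 and 1062. In wild-type replicate 3 the spermatid markers were below, and the spermatocyte markers within, the KO values. The Sertoli cell markers summed to 39.7, 39.9 and 45.0 in wild type and to 28.6, 18.4 and 17.1 in the KO, without overlap. Reads not wholly within a gene's exons on the transcribed strand made up 32.0% and 30.9% of counted reads in wild-type replicates 1 and 2. They made up 42.4% in replicate 3 and 47.7%, 43.9% and 37.4% in the KO. The part of these measures in the result was not tested. The effect of the KO did not pass the test of a difference between round spermatids and pachytene spermatocytes, nor between condensing and round spermatids, for any of the 5. In these interaction tests edgeR called 0 of 14479 genes each, with 1051 and 407 genes at an unadjusted p under 0.05, and DESeq2 called 1 and 0.

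Genes known to act on these 5 were followed in lists of transcription factors and co-activators, of mRNA storage and translation factors, and of proteins of histone exchange. Of 16 transcription genes, 10 rose and 2 fell from wild-type pachytene to round spermatids, with a median log2 fold change of 0.94, where 34.4% of all tested genes were higher and 35.9% lower. The co-activator ACT is encoded by *Fhl5*, which went up from 43.4 ± 10.7 to 221 ± 22.7 normalized CPM (SD, n = 3). Its log2 fold change was 2.38 ± 0.18 (SE, edgeR, adjusted p = 1.37e-07). *Kif17*, a kinesin that moves ACT, rose by 2.15 ± 0.21 on the log2 scale (SE) and *Camk4*, a calcium-dependent kinase, by 2.25 ± 0.24 (SE). *Kdm3a*, a histone demethylase, fell, with -1.07, as did *Pygo2*, a chromatin co-activator, with -1.79. From round to condensing spermatids 10 of the 16 fell and 1, *Pygo2*, rose (21.8% and 28.3% of all tested genes). *Taf7l*, *Tbp* and *Tbpl1*, which belong to the basal transcription machinery or are relatives of it, fell, with log2 fold changes of -0.86, -0.71 and -0.66. In spermatozoa 10 were lower and 1, *Pygo2*, higher than in condensing spermatids (35.8% and 36.6% of all tested genes), and *Fhl5* was lower by a log2 fold change of -3.53 ± 0.20 (SE, edgeR, adjusted p = 1.88e-12).

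Of 25 mRNA storage and translation genes, 8 rose and 9 fell from pachytene to round spermatids in wild type (median log2 fold change -0.09), shares near those of all tested genes, 34.4% and 35.9%. *Paip2* and *Paip2b*, inhibitors of the poly(A)-binding protein, rose by 1.80 ± 0.14 and 1.22 ± 0.13 on the log2 scale (SE), and *Fxr1*, an RNA-binding protein of spermatids, increased from 484 ± 61.2 to 1256 ± 100 normalized CPM (SD, n = 3). *Piwil1* and *Piwil2*, which bind piRNAs, fell, with log2 fold changes of -4.16 and -2.69, as did *Khdrbs1*, an RNA-binding protein gene, with -1.91. From round to condensing spermatids 7 rose and 11 fell (28.3% and 21.8% of all tested genes). *Piwil1* and *Piwil2* were among those that rose, by 1.63 ± 0.15 and 1.05 ± 0.13 on the log2 scale (SE), as was *Celf1*. In this comparison 4 of 12 spermatocyte markers and 5 of 9 tested spermatogonium markers were called higher too. *Adad1*, *Pabpc2* and the helicase gene *Ddx25* fell, with -0.96, -0.75 and -0.65. In spermatozoa 21 of the 25 were lower, including *Dazl*, *Papolb* and *Ddx4* with log2 fold changes of -3.35, -2.58 and -2.15, and 1, *Celf1*, was higher (35.8% and 36.6% of all tested genes). The median of the list was -1.47 against -0.000147 for all tested genes. The median of the 5 genes was -1.71.

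Of 37 histone exchange genes, 10 rose and 19 fell from pachytene to round spermatids in wild type (median log2 fold change -0.38), against 34.4% and 35.9% of all tested genes. The spermatid linker histone genes *H1fnt* and *Hils1* rose by 2.55 ± 0.25 and 2.18 ± 0.23 on the log2 scale (SE) and *Cdyl*, a chromodomain protein gene, by 2.38 ± 0.22 (SE), where the median of the 5 genes was 2.81. *Hist1h1t*, the linker histone H1t of spermatocytes, fell, with -5.40, and so did *Hist1h2ba*, the testis H2B variant, with -3.63, and *Psma8*, a testis proteasome subunit, with -2.80. From round to condensing spermatids 9 rose and 8 fell, against 28.3% and 21.8% of all tested genes. *Hist1h1t* increased from 22.7 ± 6.64 to 182 ± 30.9 normalized CPM (SD, n = 3) and *Hist1h2ba* from 61.5 ± 14.9 to 222 ± 46.2 (SD, n = 3), and 4 of 12 spermatocyte markers and all 11 tested Sertoli cell markers rose there too. *Top2b*, a topoisomerase gene, rose by 1.13 ± 0.24 (SE), and *Nutm1*, *Dot1l* and *Hdac1*, which act on histone acetylation or methylation, fell, with -1.47, -0.90 and -0.72. In spermatozoa 22 were lower, with *Cdyl*, *Chd5* and *Nutm1* at -2.81, -2.46 and -2.32, and 8 higher, with *Hira*, *Ep300* and *Ctcf* at 1.57, 1.52 and 1.27, against 35.8% and 36.6% of all tested genes. None of the 16, 25 and 37 genes was called between *H2al2* KO and wild type at any of the 3 stages tested, where 0%, 0.0156% and 0.00728% of all tested genes were called.

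Other genes had patterns over the 21 libraries close to those of the 5. Likeness was the Pearson correlation of log2(normalized CPM + 1) over the 21 libraries, ranked among 8990 other genes. It is a description in which the points share stages and libraries. *Tex37*, *Tex35* and *Gstt4* were most like *Tnp1* (r = 0.997 for each). *Spata3*, *Pwwp2b* and *2610318N02Rik* were most like *Tnp2* (r = 0.995 for each), and *Ace*, which encodes the angiotensin-converting enzyme with its testis form, *Spata3* and *1700001C19Rik* most like *Prm1* (r = 0.996 to 0.997). For *Prm2* they were *1700080E11Rik*, *Gm5893* and *Spem1*, a gene needed to shed spermatid cytoplasm (r = 0.996 to 0.998), and for *Prm3* *1700019D03Rik*, *1700015G11Rik* and *Fam166a* (r = 0.992). Their mean level in wild-type round spermatids lay between 156 normalized CPM for *1700080E11Rik* and 878 for *2610318N02Rik*. Among the 5 themselves, r was highest between *Tnp2* and *Prm1*, at 0.997, and lowest between *Tnp1* and *Prm2*, at 0.866.

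The genes beside the chromosome 16 cluster did not share its pattern of levels. Within 100 kb on either side the annotation holds *Clec16a*, *Socs1* and *Rmi2* among the genes counted. *Clec16a*, an autophagy gene, had a mean of 87.8 normalized CPM in wild-type pachytene spermatocytes and 89.1 in round spermatids. *Socs1*, a cytokine signalling inhibitor, was at 2.92 and 1.52, and *Rmi2*, a DNA repair gene, at 5.30 and 0.833. The pseudogenes *Gm10343* and *Gm17913* of this interval were not analysed here.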

How the data were processed

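RNA of male germ cells was sequenced as stranded, ribosomal RNA-depleted, paired-end libraries. Reads were aligned without trimming by the authors, using STAR 2.7.11b and mm10, who deposited raw HTSeq counts per gene and library, taken over exons on the transcribed strand without multiply aligned reads. DESeq2 1.22.2 is also named in the submitters' notes. Each file lists 24456 genes and 5 rows that name no gene, which held 34.6% to 57.8% of counted reads and entered neither library sizes nor tests. Reads of near-identical gene copies are lowered by this counting.

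Tests over all genes used edgeR 4.0.16 in R 4.3.3 (quasi-likelihood, TMM, filterByExpr), with Benjamini-Hochberg adjustment and a threshold of 0.05. Stages were compared within the 9 libraries of each genotype, spermatozoa with condensing spermatids in wild type, and genotypes within a stage; the effect of the KO was compared between stages as an interaction over 18 libraries. Alternatives were library size only, size factors and the Wald test of DESeq2 1.42.0, scaling without the 5 genes, no filter, a replicate block, each replicate left out, other sets of libraries in the fit, and wild-type round spermatid replicates 2 and 3, which are close to each other, summed. The tests were checked on simulated counts. Transcript lengths came from GENCODE M21, and 23378 genes had one; promoters, positions and symbols came from RefSeq (GRCm38.p6), in which all 5 genes matched.

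The members and lists were chosen with earlier results of these data known. Named genes are the 5, *H2afb1*, the 3 genes most like each (at least 10 CPM on average), up to 3 called genes per list, direction and wild-type stage comparison with the largest change (at least 1 CPM on average), counted genes within 100 kb of the cluster and the most abundant gene of marker lists. *mt-Rnr1*, *mt-Rnr2*, *Lcn5*, *Lcn8* and *Lcn9* are named outside this rule, after their values were seen. The replicate numbers were not read as pairs.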

Additional observations from a re-analysis of the deposited data

How the results depend on the processing

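The calls of all 5 genes between pachytene and round spermatids held in both genotypes under every alternative run. Over the alternatives, the 5 genes had 520 values in the 8 pairwise comparisons, of which 489 had the same sign and call, 9 gained a call, 1 lost it and 21 changed sign, none of these 21 past the threshold. The number of the 5 called ranged, with 1 library of the groups compared left out, from 0 to 1 in condensing against round spermatids of the KO (in wild type also without pachytene replicate 3, from 0 to 1), from 4 to 5 in spermatozoa (the 4 from a fit with 1 spermatozoa library, assumed to vary like the condensing ones), and from 0 to 5 between *H2al2* KO and wild type in pachytene spermatocytes. It was 1 in wild-type condensing against round spermatids in the fit on these stages alone, an alternative added, like the fit without wild-type pachytene replicate 3, after seeing the data. Leaving out a library, the log2 fold change of condensing against round spermatids ranged from -0.11 to 0.17 for *Prm1* in wild type, and in the KO from -0.231 to 0.0818 for *Prm1* and -0.20 to 0.10 for *Prm3*. That of KO against wild type ranged from -0.60 to 0.0012 for *Prm3* in pachytene spermatocytes. In round spermatids it ranged from -0.0762 to 0.0908 for *Tnp1*, -0.144 to 0.0269 for *Tnp2*, -0.0988 to 0.0653 for *Prm1* and -0.184 to 0.0667 for *Prm2*. In condensing spermatids it ranged from -0.10 to 0.26 for *Tnp1*, -0.16 to 0.20 for *Tnp2*, -0.357 to 0.0409 for *Prm1* and -0.422 to 0.0105 for *Prm2*, and with library size only it was -0.0156 for *Tnp2*. With library size only, the all-gene median of round against pachytene in wild type was -0.20 in place of -0.02. The cause of these changes was not tested. Deviations of libraries with the same replicate number did not correlate in every pair (-0.21 to 0.27), and the replicate block changed no call of the 5, though genes called in the KO rose from 2 to 61 in round and from 1 to 26 in condensing spermatids. Of 120 mean levels under another scaling, 18 moved by more than 1 SD or, with 1 library, its counting interval. Of the 3 genes most like each gene, none was kept for *Tnp2* and *Prm3* without spermatozoa. Genes named from the lists, other than the 5, were not recomputed under the alternatives. Without a filter edgeR called 28 and 27 genes between genotypes in round and condensing spermatids, and DESeq2 6 and 13. In the main edgeR fit the counts were 2 and 1. Leaving out a library raised the main counts to 264 in round spermatids (wild-type replicate 1) and 24 in condensing spermatids (wild-type replicate 2). The former left wild-type round replicates 2 and 3, which are close to each other.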
